A study of Mus musculus with 7 samples.

Results

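The genes described here are 36 genes of protein folding in the endoplasmic reticulum (ER) and of the unfolded protein response, chosen by name from the 19938 genes that a single-gene probe set names on the arrays. RNA came from long bones, enriched for osteocytes, of 4 control and 3 knockout male mice that were 39 to 41 weeks old, with 1 array per mouse. Knockout mice lacked Mbtps1 through Dmp1-Cre, a recombinase driven by the promoter of Dmp1, which is active mainly in osteocytes and late osteoblasts. Most other cells of the bone pieces should therefore keep the gene, but recombination was not measured here. Controls are labelled wild type and are littermates, and the labels do not say whether any of them carried the Cre transgene or a floxed Mbtps1 allele. Marrow had been removed, and the bone had gone through 4 rounds of collagenase digestion and EDTA extraction before RNA was isolated. Genes of marrow cells still gave signal on every array. The neutrophil-lineage gene Mpo read 2939 ± 241 in controls and 2948 ± 161 in knockouts. The erythroid gene Slc4a1 read 2351 ± 657 in controls and 2663 ± 109 in knockouts. The osteocyte genes Dmp1 and Mepe were measured on every array, Dmp1 at 1449 ± 881 in controls and 556 ± 171 in knockouts and Mepe at 1484 ± 854 in controls and 534 ± 168 in knockouts. In bulk bone, fewer cells of a type and less RNA per cell cannot be told apart.

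Proteins that enter the ER are threaded through the Sec61 channel, folded by chaperones such as BiP and by disulfide isomerases, and shipped to the Golgi in COPII-coated vesicles, whereas those that fail to fold are sent back to the cytosol for degradation. When unfolded protein builds up, the membrane sensors PERK, IRE1 and ATF6 start the unfolded protein response. PERK phosphorylates the translation factor eIF2-alpha, which slows protein synthesis and favours translation of ATF4. IRE1 splices Xbp1 mRNA, and ATF6 travels to the Golgi, where site-1 protease, the product of Mbtps1, and then site-2 protease cut it to free a transcription factor. Osteoblasts and osteocytes secrete large amounts of collagen and other matrix proteins and depend on this machinery.

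ATF6 and spliced XBP1 are known to act through short promoter elements, and the promoters below are shown because they carry those elements in the genes whose values are given later. The ER stress response element (ERSE) was searched as CCAAT and CCACG parted by 9 bases of any kind, and ERSE-II as ATTGG and CCACG parted by 1. The unfolded protein response element (UPRE) was searched as TGACGTGG, and the element of ATF4 (CARE) as TGATG and AAT parted by 1 base. The core CCACG was searched alone as well, and all searches covered both strands. The core lies inside the ERSE, the ERSE-II and, on its other strand, the UPRE. Windows run from 250 bases before to 50 bases after the start of a gene in RefSeq, build GRCm38.p6, and 31 of the 36 genes have one. An ERSE occurred in 9 of these 31 promoters (Hspa5, Hsp90b1, Calr, Canx, Dnajc3, Creld2, Pdia6, Syvn1 and Derl3), against 0.137% of the 27025 genes with a promoter window. An ERSE-II occurred in 2 (Dnajb11 and Herpud1), against 0.0444% of all genes. The UPRE occurred in 1 (Sec24d), against 0.714%, and the CARE in none, against 1.08%. The core occurred in 24, Dnajb9 among them, against 35.5% of all genes. The stretches are written 5′ to 3′ on the strand of the gene, all upstream of its start, with capitals at the letters of the ERSE (Hspa5, Hsp90b1, Calr, Syvn1, Derl3), the ERSE-II (Herpud1), the core (Dnajb9) and the UPRE (Sec24d).
Hspa5 (chr2:34772005-34772063, plus strand): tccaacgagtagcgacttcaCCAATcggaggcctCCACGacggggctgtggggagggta
Hsp90b1 (chr10:86705513-86705676, minus strand): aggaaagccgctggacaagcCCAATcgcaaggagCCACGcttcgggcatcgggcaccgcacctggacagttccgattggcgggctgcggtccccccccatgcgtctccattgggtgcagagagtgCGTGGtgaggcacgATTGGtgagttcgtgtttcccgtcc
Calr (chr8:84847055-84847113, minus strand): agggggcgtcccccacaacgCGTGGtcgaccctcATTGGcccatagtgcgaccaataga
Syvn1 (chr19:6046512-6046570, plus strand): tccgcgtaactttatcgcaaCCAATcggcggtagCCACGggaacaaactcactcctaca
Derl3 (chr10:75893222-75893280, plus strand): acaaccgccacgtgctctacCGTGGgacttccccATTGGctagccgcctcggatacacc
Herpud1 (chr8:94386357-94386407, plus strand): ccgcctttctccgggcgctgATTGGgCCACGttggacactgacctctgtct
Dnajb9 (chr12:44210069-44210196, minus strand): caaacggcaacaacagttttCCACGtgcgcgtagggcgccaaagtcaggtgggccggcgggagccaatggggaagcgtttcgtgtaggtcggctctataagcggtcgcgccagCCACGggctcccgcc
Sec24d (chr3:123267450-123267495, plus strand): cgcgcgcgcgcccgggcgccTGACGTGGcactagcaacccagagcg
Hsp90b1 holds 2 ERSEs, 1 on each strand. The Dnajb9 stretch holds the core 2 times, with no complete ERSE in its window. A match is a description of the letters and not evidence of binding.

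Each value is the linear intensity of a probe set, so levels of different genes are not set against each other. Array medians ran from 87.3 to 108. Differences are knockout minus control on the scale of log2(intensity + 16), from limma fitted across 13938 genes, with the standard error (SE) and the 95% interval of the difference. Group values are means ± SD over 4 controls and 3 knockouts, whose small number limits the precision. Mbtps1 itself read 162, 149, 131 and 152 in controls 1 to 4 and 115, 107 and 154 in knockouts 1 to 3, a log2 difference of -0.23 (SE 0.14, limma adjusted p = 0.807). Knockouts 1 and 2 lay below every control and knockout 3 within the control range. The exons covered by the Mbtps1 probe set were not analysed here, and the value is therefore no check of the genotype labels.

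None of the 36 genes passed a limma adjusted p of 0.05 between knockout and control bone, where the smallest was 0.659. All 36 passed the filter on low signal. At an unadjusted limma p under 0.05, 2 genes were lower and none higher in knockout bone, against 2.71% of all genes lower and 3.77% higher. The 2 were Dnajb9, a cochaperone of BiP, at a log2 difference of -0.48, and Sec24d, a cargo adaptor of COPII vesicles, at -0.27. With the same rule, quantile normalization gave 4.15% lower and 3.81% higher over all genes, and median centring 3.66% and 1.90%. Quantile normalization added 1 of the 36 genes as higher, Sec61b. Groups did not overlap for 1 of the 36 genes, Sec24d, with knockouts lower, against 7.99% of all genes (2.76% with knockouts lower and 5.22% higher). The median difference was 0.04 over the 36 and 0.07 over all genes tested, and 25 of the 36 were above 0 (69.4%, all genes 67.7%). With median centring, 9 of those 25 were below 0, namely Creld2, Manf, Erp29, Erp44, Herpud1, Eif2ak3, Ddit3, Ppp1r15a and Ssr1. No gene among the 13938 passed the adjusted threshold, and 904 (6.49%) had an unadjusted p under 0.05.

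The 95% intervals bound the size of a difference that these arrays leave possible. For 33 of the 36 genes the 95% interval lay within 1.5-fold in both directions, against 82.0% of all genes. The other 3 were Dnajb9 (-0.83 to -0.12), Sdf2l1 (-0.08 to 0.63) and Syvn1 (-0.09 to 0.59). For all 36 it lay within 2-fold, as it did for 98.6% of all genes. These bounds apply to the mixed RNA of the bone pieces, and a change in osteocytes alone could be larger than they allow.

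**Figure D1:**
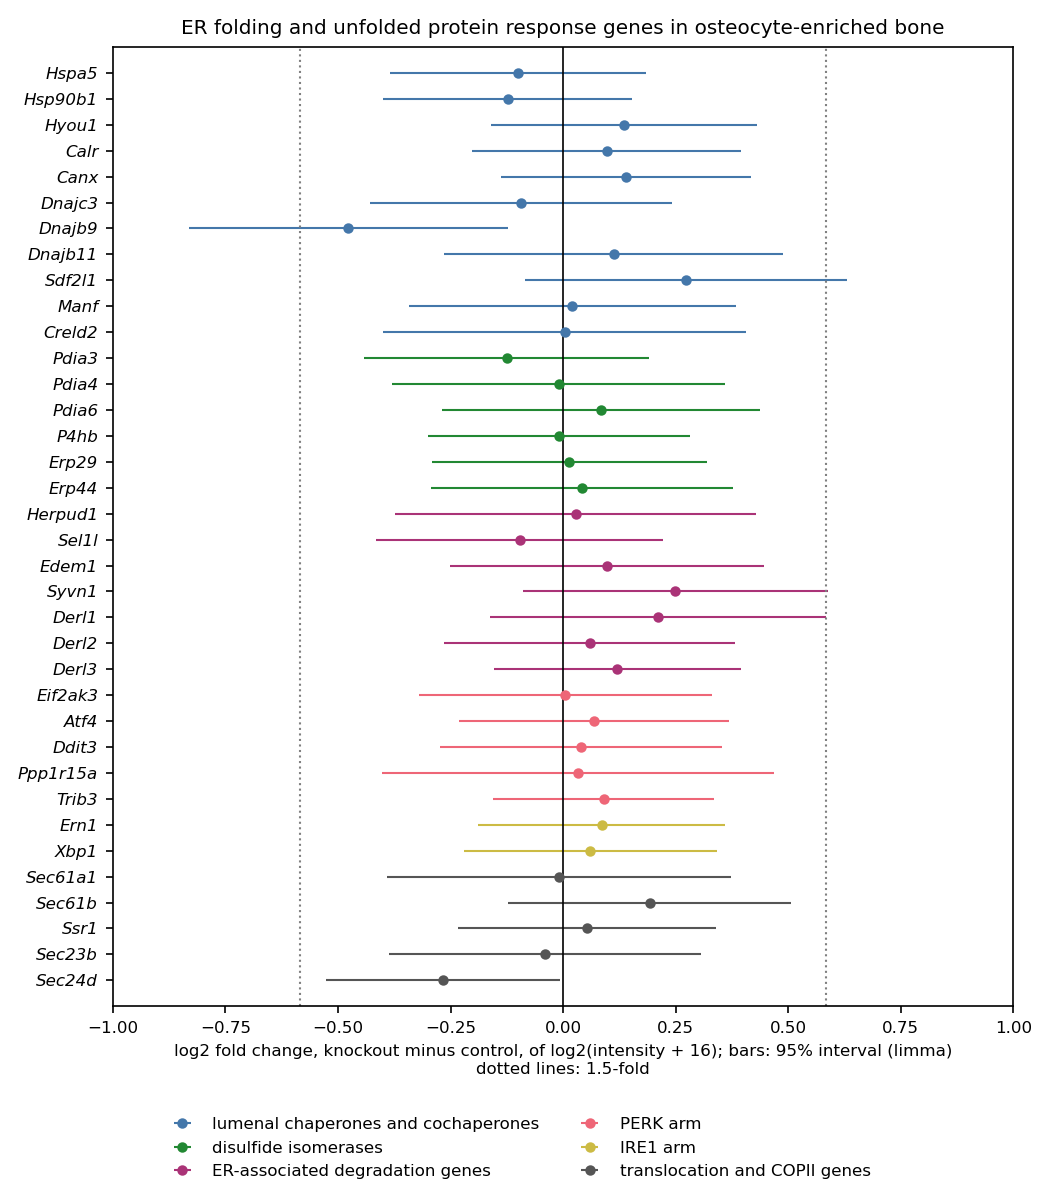
Log2 difference between knockout and control bone (horizontal axis, log2 of intensity + 16) for the 36 genes (vertical axis), coloured by role, with points for the limma estimate and bars for its 95% interval. Intervals of 34 genes cover 0, and those of Dnajb9 (-0.83 to -0.12) and Sec24d (-0.53 to -0.0062) lie below it.

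The lumenal chaperones and cochaperones spread on both sides of 0, with Dnajb9 as the lowest of all 36 genes. Of the 11, 4 were below and 7 above 0, with a median of 0.02 and a range of -0.48 to 0.27. Hspa5 encodes BiP, the Hsp70 chaperone of the ER that also holds the stress sensors inactive. It read 1274, 1519, 1434 and 1139.7 in controls 1 to 4 and 1214, 1311 and 1207 in knockouts 1 to 3. The knockouts lay inside the control range, and the difference was -0.10 (SE 0.13, interval -0.39 to 0.18, limma adjusted p = 0.890). Hsp90b1, which encodes the Hsp90 paralog GRP94, read 1910.1, 2531, 2164 and 2314 in controls 1 to 4 and 1829, 2316 and 1990.4 in knockouts 1 to 3. Its difference was -0.12 (SE 0.13, limma adjusted p = 0.869), with only knockout 1 below the lowest control.

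Dnajb9 encodes ERdj4, a J-domain cochaperone of BiP that holds IRE1 in check and helps in degradation, and whose gene is known as a target of spliced XBP1. It read 249, 368, 342 and 299 in controls 1 to 4 and 203, 265 and 196 in knockouts 1 to 3. Knockouts 1 and 3 were below every control, but knockout 2 lay above control 1, so the groups overlapped. The group values were 315 ± 52.5 in controls and 221 ± 38.5 in knockouts, a log2 difference of -0.48 (SE 0.16, interval -0.83 to -0.12). The unadjusted limma p was 0.0123, the adjusted p 0.659, and the two-sided exact permutation p, from all 35 ways to part the 7 arrays, 0.0857, where 0.0286 is the smallest possible. The difference was -0.42 without knockout 1 and -0.40 without knockout 3, with an unadjusted limma p above 0.05 in both cases. It stayed below 0 with each array left out (-0.61 to -0.40).

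The other J-domain proteins of the ER among the 36 lay closer to the control level. Dnajc3, the cochaperone p58IPK that also inhibits PERK, differed by -0.09 (interval -0.43 to 0.24), and the 2 probe sets that name it hold identical values. Dnajb11, the cochaperone ERdj3, differed by 0.11 (interval -0.26 to 0.49). Whether Dnajb9 differs from these in its response was not tested. Sdf2l1, which works with ERdj3 and BiP, had the highest difference of the 36, 0.27 (SE 0.16, limma adjusted p = 0.808). It read 366, 395, 337 and 247 in controls 1 to 4 and 385, 435 and 392 in knockouts 1 to 3, and control 4 lay below the other 6 arrays while knockouts 1 and 3 lay below control 2. Without control 4 the Sdf2l1 difference was 0.14.

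The lectin chaperones, which hold glycoproteins during folding, were slightly above the control level, Calr (calreticulin) by 0.10 and Canx (calnexin) by 0.14. The Calr difference was 0.23 without knockout 1 and -0.0034 without knockout 2. Hyou1, the nucleotide exchange factor GRP170, differed by 0.13. Manf and Creld2, small secreted or lumenal proteins that are induced by ER stress, differed by 0.02 and 0.0035. None of these 5 had a limma adjusted p below 0.852.

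**Figure D2:**
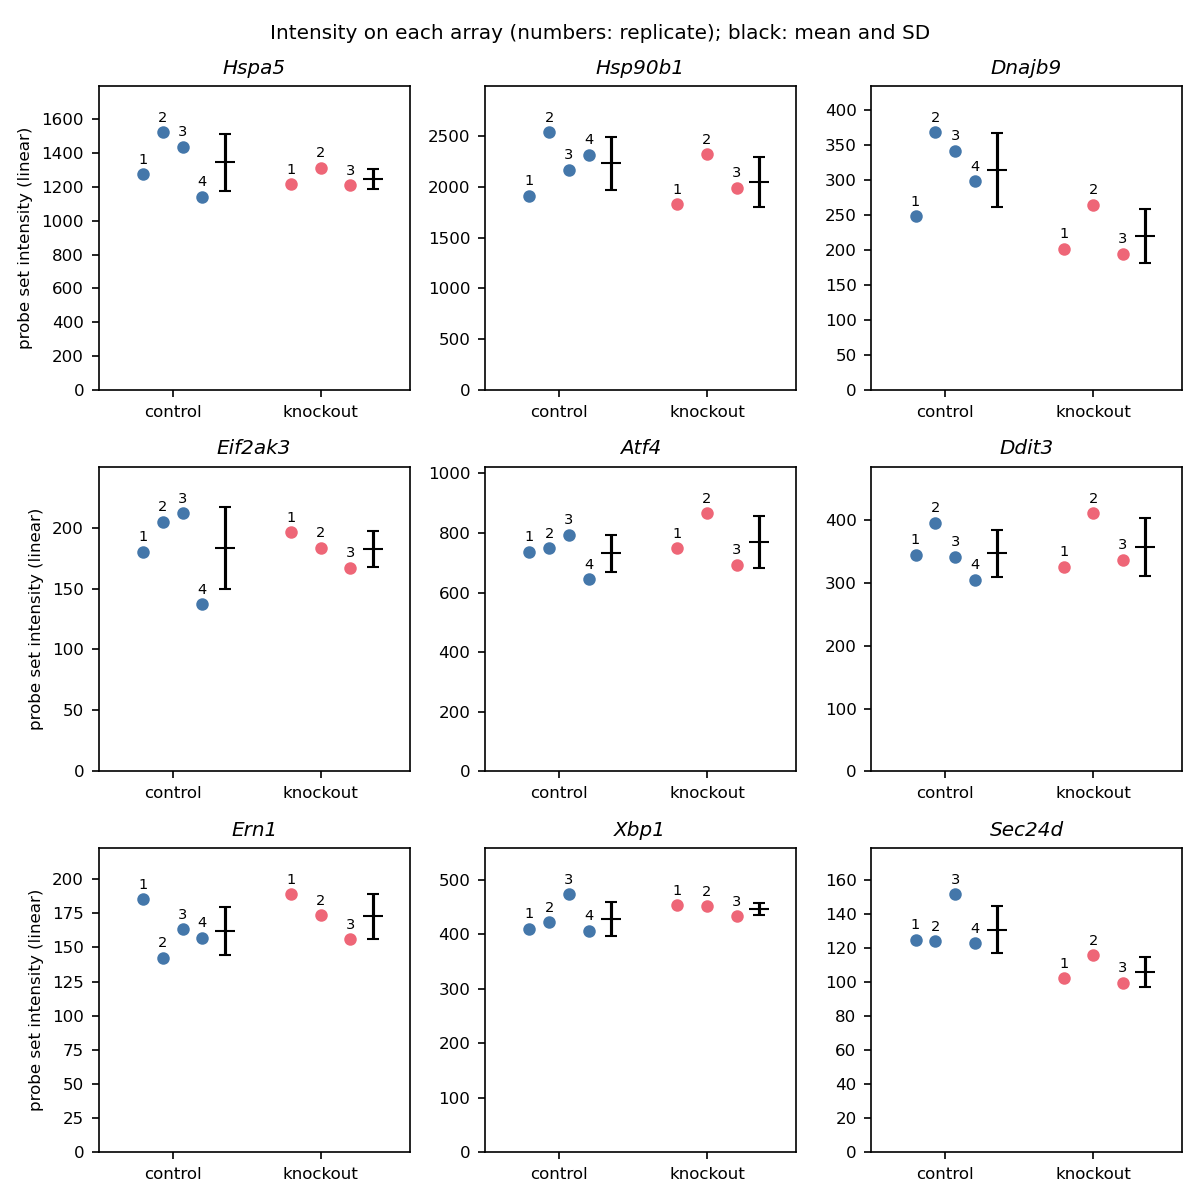
Probe set intensity (vertical axes, linear, from 0) on each control and knockout array for 9 genes, numbered by replicate, with the mean and SD in black. The 3 Sec24d knockouts (99.6 to 116) sit below all 4 controls (123 to 151), and in the other 8 genes the groups overlap.

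The disulfide isomerases, which form and reshuffle disulfide bonds in new proteins, showed the narrowest spread around 0 among the roles with more than 5 genes. Their 6 differences ran from -0.13 to 0.08 with a median of 0.0025, and 3 were on each side of 0. P4hb is both protein disulfide isomerase and the beta subunit of the collagen prolyl hydroxylase. It read 841 ± 92.2 in controls and 833 ± 49.9 in knockouts, a difference of -0.0088 (interval -0.30 to 0.28). Pdia3, the isomerase ERp57 that works with calnexin and calreticulin, was the lowest at -0.13 (interval -0.44 to 0.19), and Pdia6 the highest at 0.08. Pdia4 differed by -0.0099, while a second, dimmer probe set of Pdia4 gave -0.27. Erp29 (0.01), a lumenal protein of the isomerase family, and Erp44 (0.04), which retains client proteins at the ER to Golgi boundary, completed the group.

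Genes of ER-associated degradation lay close to the level of all genes. Of the 7, 6 were above 0 and 1 below, with Herpud1 also below 0 after median centring, and the median was 0.10. Over all genes, 67.7% were above 0 and the median was 0.07. Syvn1 encodes HRD1, the ubiquitin ligase of the pathway. It read 355, 356, 424 and 283 in controls 1 to 4 and 467, 381 and 417 in knockouts 1 to 3, a difference of 0.25 (SE 0.16, limma adjusted p = 0.818). Derl1, a derlin of the retrotranslocation channel, read 443, 437, 592 and 352 in controls 1 to 4 and 565, 541 and 464 in knockouts 1 to 3, a difference of 0.21 (SE 0.17). In both genes control 4 was the lowest array, and in both the knockouts overlapped the controls through control 3. Without control 3 the differences were 0.34 for Syvn1 and 0.34 for Derl1, both with an unadjusted limma p under 0.05, and without control 4 they were 0.15 and 0.10. These 2 genes were chosen for full description after their values were seen.

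The remaining degradation genes lay close to the control level. Sel1l, the partner of HRD1, was the only one below 0, at -0.10 (interval -0.42 to 0.22), and its 3 knockouts lay between 289 and 302, inside the control range. Edem1, which recognises trimmed glycans on misfolded proteins, differed by 0.10. Herpud1, a scaffold of the HRD1 complex and one of the most stress-inducible genes of the group, read 411 ± 102 in controls and 411 ± 38.4 in knockouts, a difference of 0.03 (interval -0.37 to 0.43). Derl2 differed by 0.06 and Derl3, a derlin abundant in secretory cells, by 0.12. Derl3 had the dimmest probe set of the 36, with 80.9 to 112 across the arrays, against a low-signal filter at an intensity of 69.7.

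In the PERK arm all 5 genes lay within 0.09 of the control level on the log2 scale, and all were above 0 on the deposited scale, whereas Eif2ak3, Ddit3 and Ppp1r15a were below 0 with median centring. Eif2ak3, which encodes PERK, read 180.2, 205, 212 and 137 in controls 1 to 4 and 196, 183 and 167 in knockouts 1 to 3. The difference was 0.0053 (interval -0.32 to 0.33), and control 4 was the lowest array. Atf4, the transcription factor translated when eIF2-alpha is phosphorylated, read 738, 749, 795 and 646 in controls 1 to 4 and 749, 866 and 694 in knockouts 1 to 3, a difference of 0.07 (interval -0.23 to 0.37). Ddit3 encodes CHOP, the factor linked to cell death under lasting stress. It read 345, 396, 342 and 306 in controls 1 to 4 and 326, 411 and 337 in knockouts 1 to 3, a difference of 0.04 (interval -0.27 to 0.35). In each of these 3 genes the groups overlapped, and knockout 2 was the highest array in Atf4 and Ddit3.

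The feedback genes of the PERK arm also lay close to the control level. Ppp1r15a, which encodes GADD34, the phosphatase subunit that restores translation, ran from 252 in control 4 to 505 in control 3, with the knockouts between 366 and 423. Its difference was 0.03 (SE 0.20), the largest SE of the 36. Trib3, a pseudokinase induced by ATF4 and CHOP, differed by 0.09 (SE 0.11), the smallest SE of the 36. A list of 16 immediate early genes, such as those of the FOS family, had a median of -0.68 in the same RNA. The differences ran from -1.55 (Atf3) to -0.09 (Egr3). Of these 16, 14 were lower at an unadjusted p under 0.05, against 2.71% of all genes, and their list mean was 8.98 ± 0.39 in controls (range 8.48 to 9.32) and 8.22 ± 0.19 in knockouts (8.05 to 8.43) on the log2 scale. The part of that difference in the stress genes was not tested.

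Both genes of the IRE1 arm lay close to the control level. Ern1, which encodes the sensor IRE1-alpha, read 185, 143, 163 and 157 in controls 1 to 4 and 189, 174 and 156 in knockouts 1 to 3, a difference of 0.09 (SE 0.13, interval -0.19 to 0.36, limma adjusted p = 0.908). Xbp1 read 410.4, 422, 473 and 407 in controls 1 to 4 and 454, 452 and 433 in knockouts 1 to 3, a difference of 0.06 (SE 0.13, interval -0.22 to 0.34, limma adjusted p = 0.940). The knockouts of Xbp1 lay inside the control range, and in Ern1 knockout 1 was the highest array and control 2 the lowest. The probe set reads total Xbp1 RNA as annotated, and the spliced form was not analysed here.

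Genes of ER entry and exit lay on both sides of 0, with Sec24d as the only gene of the 36 whose groups did not overlap. Sec24d is a cargo-binding subunit of the COPII coat, and its loss is known to trap collagen in the ER of skeletal cells. It read 125, 124, 151 and 123 in controls 1 to 4 and 102, 116 and 99.6 in knockouts 1 to 3. All knockouts were below all controls, and control 3 stood above the other controls. The group values were 131 ± 13.8 in controls and 106 ± 8.54 in knockouts, a log2 difference of -0.27 (SE 0.12, interval -0.53 to -0.0062). The unadjusted limma p was 0.0455, the adjusted p 0.768, and the two-sided exact permutation p 0.0286, the smallest the design allows. The difference was -0.20 without control 3. The unadjusted limma p was above 0.05 without control 1, 2 or 3 or without knockout 1 or 3, and the difference ran from -0.32 to -0.20 with each array left out.

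Most markers of matrix-forming cells also read lower in knockout bone. The mean of the 8 measured osteoblast markers was 9.17 ± 0.33 in controls (range 8.70 to 9.48) and 8.73 ± 0.22 in knockouts (8.52 to 8.96) on the log2 scale, with 8 of 8 below 0 and 4 lower at an unadjusted p under 0.05. Over all genes, 2.71% were lower by that rule and 67.7% were above 0. Control 3, the highest in Sec24d, was also the highest in this mean, and it was the highest array in 30.9% of all genes. Control 2 (8.70) was below knockouts 1 (8.71) and 2 (8.96) in this mean, whereas its Sec24d value of 124 was above all knockouts. The mean of the 13 osteocyte markers was 8.79 ± 0.43 in controls (range 8.48 to 9.42) and 8.12 ± 0.14 in knockouts (7.99 to 8.27), with 10 of 13 below 0. At an unadjusted limma p under 0.05, 8 were lower and 1 higher (Tnfsf11, 0.30), against 2.71% and 3.77% of all genes. No marker of either list was at 0, and Bglap, Bglap2, Runx2 and Spp1 were not analysed here. The part of these cells in the Sec24d and Dnajb9 values was not tested.

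The other genes of this role did not stand apart. Sec23b, the inner coat partner of the SEC24 proteins, differed by -0.04 (interval -0.39 to 0.31). Sec61a1, the pore of the translocon, differed by -0.0085, with controls spread from 437 to 760.2 and knockouts from 558 to 577. Sec61b, its small partner subunit, differed by 0.19 (interval -0.12 to 0.51), and 2 further probe sets of Sec61b gave 0.15 and 0.16. With quantile normalization the Sec61b difference was 0.21, with an unadjusted limma p under 0.05. Ssr1, a subunit of the translocon-associated complex TRAP, differed by 0.05.

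Set side by side, the role medians of the log2 difference were 0.02 for chaperones, 0.0025 for isomerases, 0.10 for degradation genes, 0.04 for the PERK arm, 0.07 for the IRE1 arm and -0.0085 for translocation and COPII genes, against 0.07 for all genes. The chaperone mean per array was 9.29 ± 0.19 in controls (range 9.06 to 9.49) and 9.29 ± 0.12 in knockouts (9.18 to 9.42), and that of degradation genes was 8.24 ± 0.21 in controls (range 7.98 to 8.45) and 8.34 ± 0.05 in knockouts (8.29 to 8.38). The PERK arm mean was 8.29 ± 0.15 in controls (range 8.07 to 8.43) and 8.33 ± 0.09 in knockouts (8.26 to 8.44). Groups overlapped in each of the 6 role means. With median centring the medians were -0.04 for chaperones, -0.06 for isomerases, 0.04 for degradation genes, -0.02 for the PERK arm, 0.01 for the IRE1 arm and -0.07 for translocation and COPII genes. Without control 4 they were -0.10 for chaperones, -0.04 for isomerases, -0.0034 for degradation genes, -0.02 for the PERK arm, 0.06 for the IRE1 arm and -0.14 for translocation and COPII genes. Without control 3 the median of translocation and COPII genes was 0.09. Differences between the roles were not tested.

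The control arrays spread more widely than the knockout arrays, with a mean over the 36 genes of 8.80 ± 0.16 in controls (range 8.59 to 8.95) and 8.83 ± 0.08 in knockouts (8.78 to 8.93). Control 4 was the lowest of the 7 arrays in 25 of the 36 genes, against 43.2% of all genes. Control 3 was the highest in 13, against 30.9% of all genes. After median centring of the arrays these were 28 (50.3% of all genes) and 26 (56.8%). The 11 genes in which control 4 was not the lowest were Hsp90b1, Calr, Dnajb9, Pdia3, Pdia4, P4hb, Erp44, Derl3, Trib3, Ern1 and Sec24d. In marker lists, control 4 was the lowest array in the B cell mean (7.67, other arrays 8.16 to 8.70) and the erythroid mean (9.24, others 9.98 to 10.2). It was also the lowest in the plasma cell (7.26), adipocyte (7.86) and macrophage and monocyte (9.09) means. Control 4 was the highest in the osteocyte (9.42), immediate early (9.32) and skeletal muscle (7.18) means. The B cell mean was 8.23 ± 0.44 in controls and 8.61 ± 0.09 in knockouts, with 10 of 10 markers above 0. Of these 10, 2 were higher at an unadjusted limma p under 0.05, against 3.77% of all genes. The erythroid mean was 9.86 ± 0.43 in controls and 10.07 ± 0.06 in knockouts, with 7 of 7 above 0. The neutrophil mean was 11.77 ± 0.10 in controls and 11.71 ± 0.12 in knockouts, with 4 of 11 above 0. Over all genes, 67.7% were above 0. Groups overlapped in each of these means. Plasma cells are another secretory cell type that expresses many of the 36 genes. The mean of 5 measured plasma cell markers, with Xbp1 and Derl3 left out, was 7.50 ± 0.28 in controls (range 7.26 to 7.86). In knockouts it was 7.52 ± 0.04 (7.49 to 7.58). Of these 5, 2 were above 0 (Irf4 0.26 and Mzb1 0.23) and 3 below, with Prdm1 the lowest at -0.25. The part of these cells in the values of the 36 genes was not tested.

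**Figure D3:**
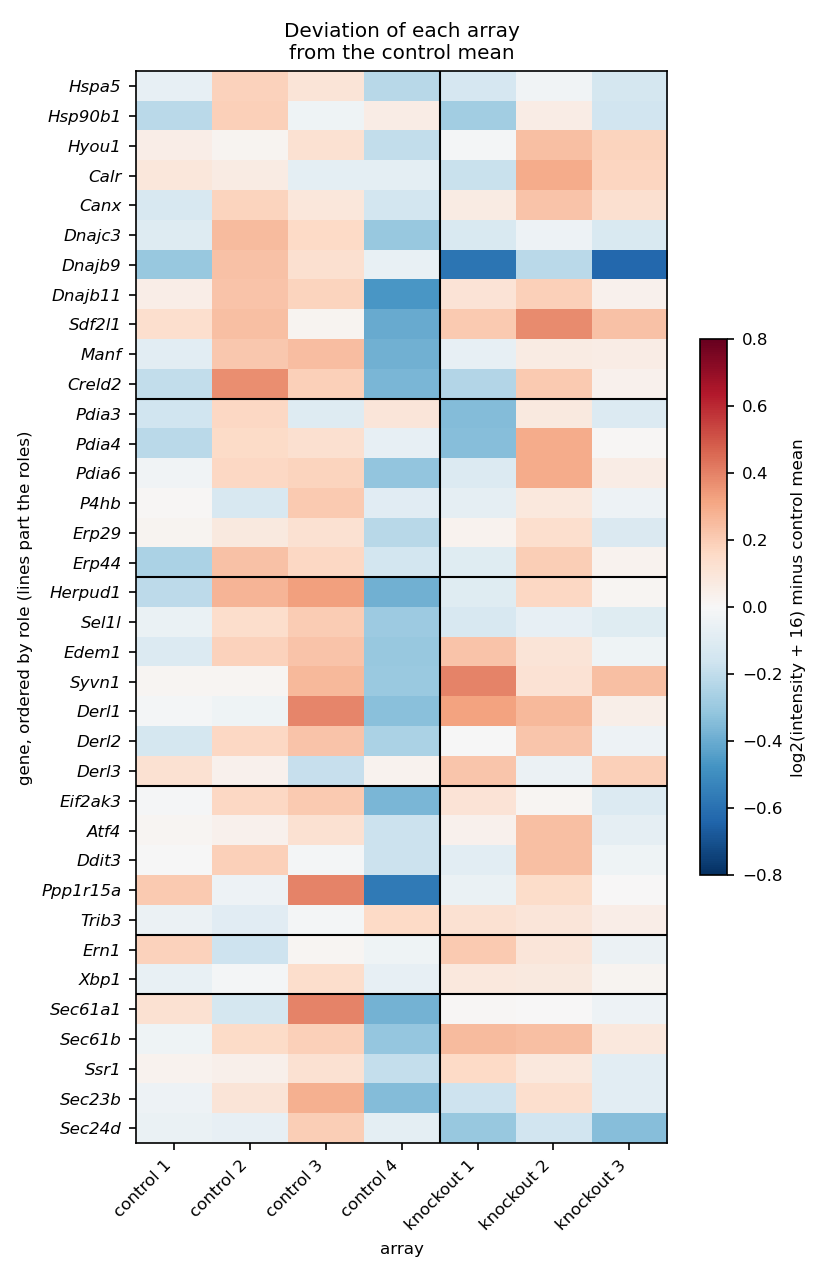
Log2(intensity + 16) of each gene (rows, parted by role) on each of the 7 arrays (columns) minus its control mean, from blue (lower) to red (higher). The control 4 column is blue in most rows, being the lowest array in 25 of 36 genes, and Dnajb9 is blue in all 3 knockout columns.

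**Figure D4:**
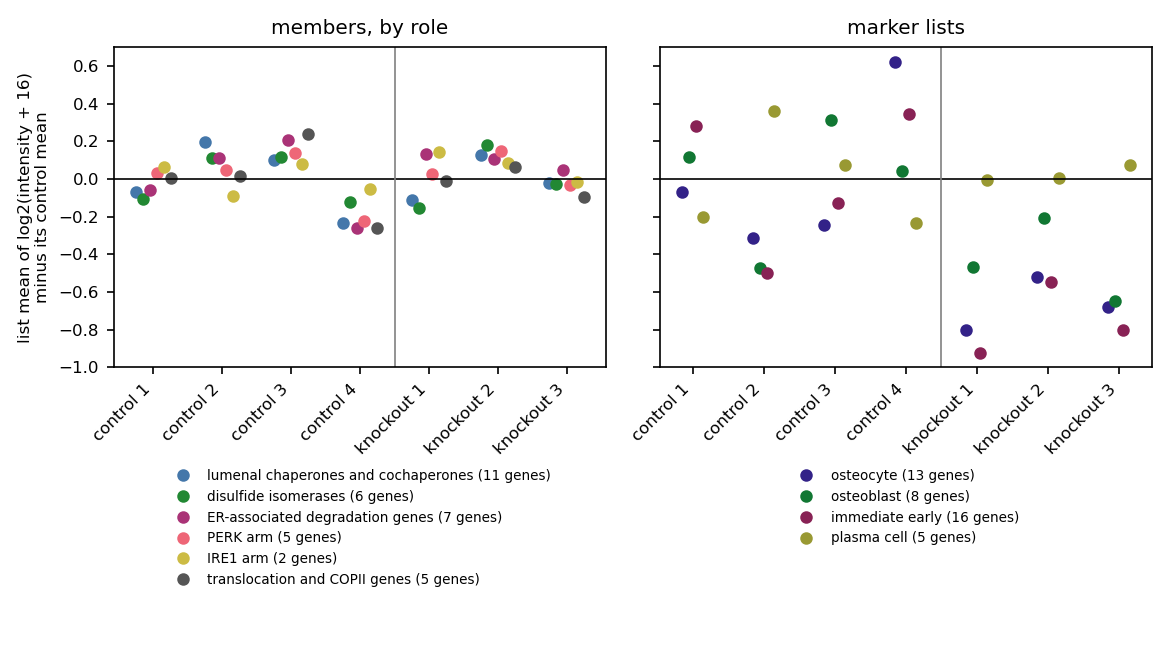
List means of log2(intensity + 16) minus the control mean (vertical axis) on each array (horizontal axis), for the 6 roles on the left and for 4 marker lists on the right. Role means of the knockouts lie inside the range of the controls or within 0.1 of it, whereas the osteocyte and immediate early means of the 3 knockouts lie below every control.

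The promoter elements shown above were set beside the values. The 9 genes with an ERSE had differences between -0.12 (Hsp90b1) and 0.25 (Syvn1), with a median of 0.08, 3 below and 6 above 0. None of them had an unadjusted limma p under 0.05, against 6.49% of all genes. The 2 genes with an ERSE-II differed by 0.11 (Dnajb11) and 0.03 (Herpud1). Neither of the 2 genes with an unadjusted p under 0.05 had an ERSE or ERSE-II in its window: Dnajb9 had the core, as did 24 of the 31 promoters, and Sec24d the UPRE. These 2 genes were picked by their values, and a link between element and difference was not tested. Letters outside these windows were not searched.

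The rest of the pathway was read from a wider list. It holds 145 genes, and of these 135 have a single-gene probe set and 127 passed the filter. At an unadjusted limma p under 0.05, 5 of the 127 were lower and 1 higher, against 2.71% and 3.77% of all genes, and none passed the adjusted threshold. Their median was 0.05. Among the membrane factors that site-1 protease cuts, Atf6 read 305 ± 29.8 in controls and 324 ± 6.75 in knockouts, a difference of 0.09 (SE 0.13), and Atf6b differed by 0.27 (SE 0.15). Creb3l2, a related factor of secretory cells that is known to control genes of the COPII coat, read 133, 107, 133 and 148 in controls 1 to 4 and 79.5, 106 and 101 in knockouts 1 to 3. All its knockouts were below all controls, though knockout 2 and control 2 almost met, and the difference was -0.39 (SE 0.14, limma adjusted p = 0.659). The 13 measured genes of the COPII coat and cargo list outside the 36 had a median of -0.0050 and a range of -0.25 to 0.13. None of the 13 had an unadjusted limma p under 0.05, against 6.49% of all genes.

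The other genes of the wider list with an unadjusted p under 0.05 came from several roles. Vldlr, a lipoprotein receptor that ATF4 can induce, was the lowest at -0.83 and read 182, 162, 188 and 376 in controls 1 to 4 and 99.1, 122 and 121 in knockouts 1 to 3, with control 4 far above the rest. Nupr1, a stress-induced nuclear protein, differed by -0.53 and read 417 ± 68.8 in controls and 282 ± 42.6 in knockouts. The ER prolyl isomerases Fkbp7 (-0.45) and Fkbp9 (-0.33) were also lower. Ube2j2, a ubiquitin-conjugating enzyme of ER degradation, was the only one higher, at 0.39. It read 78.2 ± 9.12 in controls and 107 ± 9.98 in knockouts, and its controls (72.0 to 91.4) lay close to the low-signal filter at 69.7. In Vldlr, Nupr1, Fkbp7 and Ube2j2 the groups did not overlap, and in Fkbp9 they did. The limma adjusted p of these 5 genes lay between 0.605 and 0.768. By role, the 23 measured genes of the PERK, eIF2-alpha and ATF4 axis had a median of 0.11, against 0.07 for all genes. Of the 23, 19 were above 0 (82.6%, all genes 67.7%). The 2 with an unadjusted limma p under 0.05 were both lower, against 2.71% of all genes lower and 3.77% higher. The 18 further degradation genes had a median of 0.08, and the 14 further chaperones and prolyl isomerases one of -0.07.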

How the data were processed

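Expression was measured in 7 arrays of osteocyte-enriched bone, 4 control and 3 knockout mice, from 30 ng of total RNA each, per the labels' protocols. The authors deposited linear intensity values per probe set, made with PLIER and Affymetrix Expression Console 1.4, per the submitters' processing notes. Settings and normalization were not given in the sources used here. Groups came from the labels. The platform annotation gives 1 gene for 21789 of 35556 probe sets, several for 1621 and none for 12146. Single-gene probe sets were used, and for each gene the one with the highest mean. A filter at the 30th percentile of mean log2 values (intensity 69.7) kept 13938 genes. Log2(intensity + 16) was fitted in limma 3.58.1 (R 4.3.3) with a variance trend and no covariates (5 residual degrees of freedom, 12.6 with borrowing across genes). Adjustment was by Benjamini-Hochberg over all genes. The fit was tested on simulated data.

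Genes, roles, marker lists, motifs and the naming rule were chosen with earlier results of these data known, so lists carry no test. All 36 genes are reported. Those with values on every array were Hspa5, Hsp90b1, Xbp1, Ern1, Eif2ak3, Atf4, Ddit3 and any with an unadjusted p under 0.05 or groups that did not overlap. Of the wider list, Atf6, Atf6b, Mbtps1 and up to 8 genes with an unadjusted p under 0.05 were named, and Mbtps2 was not analysed here. Values on every array of Sdf2l1, Syvn1, Derl1 and 3 wider genes were added after seeing them. Alternatives were other filters, offsets, normalizations and variance models, array weights, the mean of probe sets, a replicate block and leaving out each array. Leaving out controls 3 and 4 together was added after seeing the data. Figures were drawn with matplotlib 3.10.9.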

Additional observations from a re-analysis of the deposited data

Results flagged for a closer look

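Dixon's test of the 4 control values on the log2 scale picked out 1 of the 36 genes. In Sec24d, control 3 stood above the other controls, at 151 against 123 to 125. Without control 3 the Sec24d difference was -0.20 in place of -0.27, and the 3 knockouts still lay below the other controls. Among 16 other genes named in the text, it picked out Dmp1 (1090.3, 927, 1012 and 2768 in controls 1 to 4), Fkbp2 (755, 785, 785 and 601 in controls 1 to 4) and Erlec1 (401, 395, 397 and 351 in controls 1 to 4). None of 17 list means was picked out, and chance alone picks about 1 in 20.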

How the results depend on the processing

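None of the 36 genes passed an adjusted p of 0.05 in limma under any of the 19 alternatives run. The count at an unadjusted p under 0.05 was 2 in the main setting, against 6.49% of all genes. It was 1 with no filter (5.73% of all genes), without a variance trend (6.29%) or without controls 3 and 4 (10.7%). It was 3 with quantile normalization (7.96% of all genes), which added Sec61b as higher. With 1 array left out it ran from 0 to 3, while the share over all genes ran from 2.33% to 12.9%. Dnajb9 had an unadjusted p under 0.05 in 17 of 19 alternatives and Sec24d in 11, and both stayed below 0 in all 19, with a lowest adjusted p of 0.122 for Dnajb9. Each role median moved by less than the SD of its role mean among the controls.

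The 904 genes with an unadjusted p under 0.05 became 1867 with array weights, 1498 without controls 3 and 4, and 325 to 1803 with 1 array left out. Genes past the adjusted threshold went from 0 to 1 with median centring, 5 with array weights, 2 without controls 3 and 4, and 0 to 5 with 1 array left out. The wider list went from 6 (6.49% over all genes) to 14 with quantile normalization (7.96% over all genes). It had 12 with array weights (13.4% over all genes) and 12 without controls 3 and 4 (10.7%). With 1 array left out it ran from 4 to 14, where the share over all genes ran from 2.33% to 12.9%. The cause was not tested.

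The labels number the mice of both groups but do not pair them. The deviations of same-numbered arrays correlated at 0.07, 0.15 and -0.53, and those of differently numbered arrays at -0.37 to 0.41. The main fit used no pairing, and these values cannot tell whether same-numbered mice shared a litter or a batch. With a replicate block, 1655 genes (11.9%) had an unadjusted p under 0.05, and the wider count was 10. The adjusted threshold was passed by 62 genes, none of the 36 among them. Only the controls have a replicate 4, so control 4 adds nothing to the difference in this fit. The median over all genes was 0.0268 with the block and 0.0268 without control 4.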

Other observations

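In the wider list, 10 of 127 genes had groups that did not overlap, 5 lower and 5 higher in knockout bone, against 7.99% of all genes. Beside those already described, Ero1b, an oxidase that recharges the disulfide isomerases, differed by 0.24, Sil1, a nucleotide exchange factor of BiP, by 0.21, the prolyl isomerase Fkbp2 by 0.26, the ubiquitin ligase Rnf5 by 0.18 and the lectin Erlec1 by -0.28. These 5 genes were chosen after their values were seen, and their unadjusted limma p lay between 0.0549 and 0.175.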
